A study of Mus musculus with 24 samples.

Results

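The 36 genes described here are transcripts that cells raise when they sense an interferon, and they were chosen as a list of symbols among the 34436 rows of a table of read counts from mouse liver. All 36 were in the table. They fall into 26 genes that answer mainly to type I interferon (the type I part), 8 interferon-inducible GTPases of the Gbp and Irg families, and the transcription factors Irf1 and Irf8, which were counted apart. A filter on low counts kept 35 of them and 12595 genes in all; Oas1g, with 88 reads over all libraries, did not pass. The livers came from wild-type C57BL/6 mice that ate their diet for 8 weeks, starting at an age of 8 to 10 weeks, and no group differs from another in genotype or drug. Expression was read by sequencing strand-marked libraries of total RNA in 4 livers on normal chow (NC), 5 on high sucrose (HS), 3 on high sucrose with 2% cholesterol (HS_Chol), 4 on 2% cholesterol with cholic acid (Chol_CA) and 4 on cholic acid alone (CA). A sixth diet, high sucrose with cholesterol and cholic acid, was not analysed here. Libraries carry the number of their column in the table (NC_0 to NC_3 and so on). The labels number the samples without saying that each is a separate animal, so every p-value measures the spread between these samples. The labels of 1 HS sample name normal chow as its diet; which HS library that is cannot be read from the column names, and all 5 were kept.

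Type I interferons bind a receptor whose kinases, Jak1 and Tyk2, activate transcription factors, Stat2 among them. With Irf9, Stat2 takes part in a complex that binds the interferon-stimulated response element (ISRE) before genes for antiviral enzymes and RNA sensors. Interferon gamma, the type II interferon made by T and NK cells, signals through its own receptor to factors that bind gamma-activated sites (GAS), and it raises Irf1, which binds ISRE-like letters in turn. The Gbp and Irg proteins are GTPases that attack the vacuoles of microbes inside cells, and in mice they answer strongly to interferon gamma, though many answer to type I interferon as well. In liver, both hepatocytes and resident macrophages (Kupffer cells) can respond.

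Total reads per library ran from 6110484 to 10244277. Values are given as CPM, a gene's reads as counts per 1e6 scaled reads, and 3 reads over all libraries of a diet correspond to 0.0821 CPM (CA) to 0.158 CPM (HS_Chol). The 7 hepatocyte markers summed to between 59800 and 137000 CPM in every diet, which fits the labelled tissue. The summed Kupffer cell markers (10 genes) were lowest in NC, at 112 to 180 CPM, and highest in Chol_CA, at 1040 to 2940 CPM. HS livers lay at 139 to 358 CPM, HS_Chol at 264 to 684 CPM and CA at 271 to 849 CPM. In whole liver, more cells of a type and more RNA per cell cannot be told apart. Set against the mean of the 20 libraries, log2 CPM tended to be higher in longer transcripts (a positive length trend, by Spearman's correlation across genes) in 12 libraries and lower in 8 (NC_3, HS_0, HS_1, HS_2, CA_0, HS_Chol_0, Chol_CA_0 and Chol_CA_1), and it was near 0 in HS_Chol_0 (-0.0532) and CA_3 (0.0434). Reads on light-strand mitochondrial tRNA genes stood at 673 to 900 per 1e6 heavy-strand reads in HS_Chol and at 8.95 to 83.4 elsewhere. With the genes that share exon bases with an opposite-strand gene left out, the genes called higher in HS_Chol went from 216 of 12595 to 39 of 8440 against NC and from 201 of 12595 to 45 of 8440 against HS. Among the members Irf1, Irf7, Oasl1, Usp18 and Gbp2 share exon bases with a gene on the opposite strand.

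**Figure D1:**
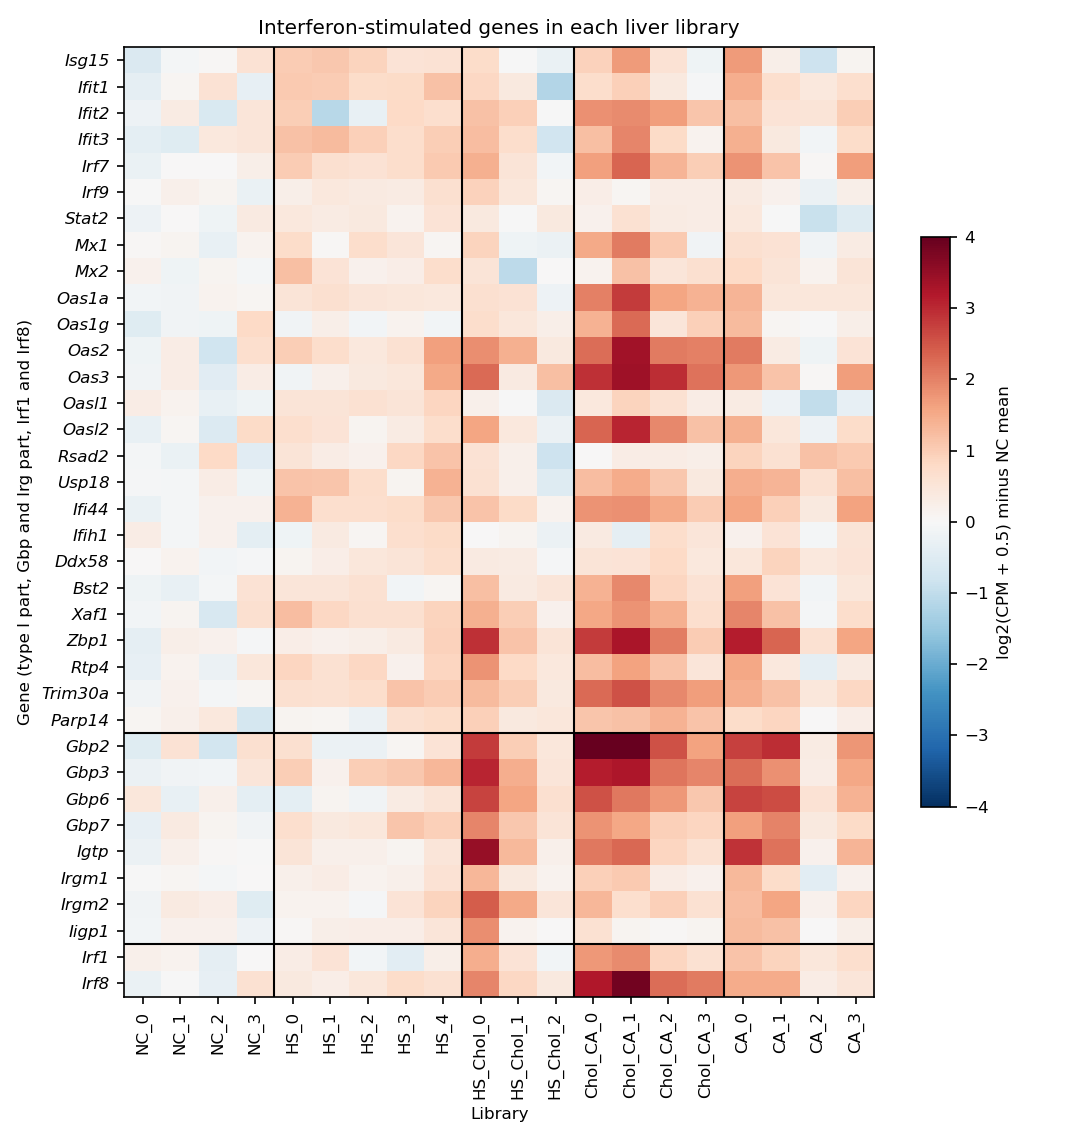
Heat map of log2(CPM + 0.5) minus the NC mean for the 36 members (rows: type I part, Gbp and Irg part, Irf1 and Irf8) in the 20 libraries (columns, by diet). Red is above the NC mean and blue below; the Gbp and Irg rows are darkest in HS_Chol_0, CA_0, CA_1, Chol_CA_0 and Chol_CA_1.

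The members differed widely in abundance. Per kilobase of exon, the most abundant type I member was Bst2 (mean over all libraries 179 CPM per kb), the membrane protein tetherin that holds budding viruses on the cell, followed by the transcription factor Irf7 (12.5) and by Stat2 (11.9). Iigp1 (74.2 CPM per kb), an Irg GTPase, stood highest in its part, ahead of Igtp (24.5) and Irgm2 (21.4). At the other end were Oas1g (0.233 CPM per kb) and Oas3 (0.296), oligoadenylate synthetases that switch on the RNA-cutting enzyme RNase L, and Mx1 (0.551), a dynamin-like GTPase whose C57BL/6 allele is known to be defective. Of the 36 members, the lowest single library was an NC library for 15 type I members, 7 Gbp and Irg members and 1 of the pair Irf1 and Irf8. The highest of all 20 libraries was Chol_CA_1 for 17 type I members and HS_Chol_0 for 4 of the 8 Gbp and Irg members.

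Values in every library are given for the 3 members of each part with the highest mean CPM. Bst2 stood at 89.5, 81.3, 94.5 and 150.1 CPM in NC, 140.2, 141, 152, 92.5 and 107 in HS, 231, 128 and 142 in HS_Chol, 263, 388, 183 and 151 in Chol_CA and 316, 146, 94.4 and 138 in CA. Its Chol_CA libraries lay above all NC libraries only just, since NC_3 stood close to the lowest of them, and CA overlapped NC. Stat2, a part of the ISRE-binding complex, stood at 53.0, 62.5, 54.7 and 78.7 CPM in NC, 82.1, 77.2, 80.6, 68.3 and 90.4 in HS, 81.1, 61.0 and 80.4 in HS_Chol, 69.9, 95.0, 76.5 and 75.8 in Chol_CA and 82.3, 60.5, 33.3 and 43.1 in CA. Its groups all overlapped NC, and CA_2 and CA_3 held the lowest values. Parp14, an enzyme that adds ADP-ribose to proteins, stood at 34.8, 38.1, 43.7 and 19.9 CPM in NC, 35.3, 34.5, 27.6, 50.9 and 55.0 in HS, 64.0, 43.1 and 44.6 in HS_Chol, 71.1, 74.4, 87.5 and 72.5 in Chol_CA and 55.4, 60.1, 32.9 and 39.7 in CA. All 4 Chol_CA values were above every value of the other diets.

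The abundant Irg members varied widely between libraries within HS_Chol and within CA. Iigp1 stood at 290.4, 356, 355 and 272 CPM in NC, 329, 368, 377, 381 and 439 in HS, 1142, 351 and 322 in HS_Chol, 479, 342, 329 and 339 in Chol_CA and 759.5, 715, 319 and 373 in CA. Its high libraries were HS_Chol_0, CA_0 and CA_1, while HS_Chol_1, HS_Chol_2 and CA_2 lay within the NC range and CA_3 just above it. Irgm2, a regulatory Irg protein without the microbe-coating role of Iigp1, stood at 39.7, 56.5, 52.3 and 31.0 CPM in NC, 48.0, 47.9, 42.5, 63.7 and 81.0 in HS, 234, 127 and 60.7 in HS_Chol, 110.2, 70.6, 85.3 and 66.6 in Chol_CA and 104, 130.0, 48.8 and 78.9 in CA. HS_Chol and Chol_CA lay above NC for Irgm2, and CA overlapped it. Irgm1, a second regulatory Irg protein that in mice guards against bacteria, stood at 47.3, 50.7, 44.6 and 47.6 CPM in NC, 54.4, 58.5, 52.6, 55.0 and 71.4 in HS, 120.3, 61.8 and 52.2 in HS_Chol, 91.8, 98.2, 58.6 and 53.9 in Chol_CA and 116, 79.6, 35.1 and 54.0 in CA. All HS, HS_Chol and Chol_CA libraries lay above all NC libraries for Irgm1, and CA overlapped NC. HS_Chol_0 and CA_0 were the highest libraries for Irgm1, and CA_2 the lowest.

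**Figure D2:**
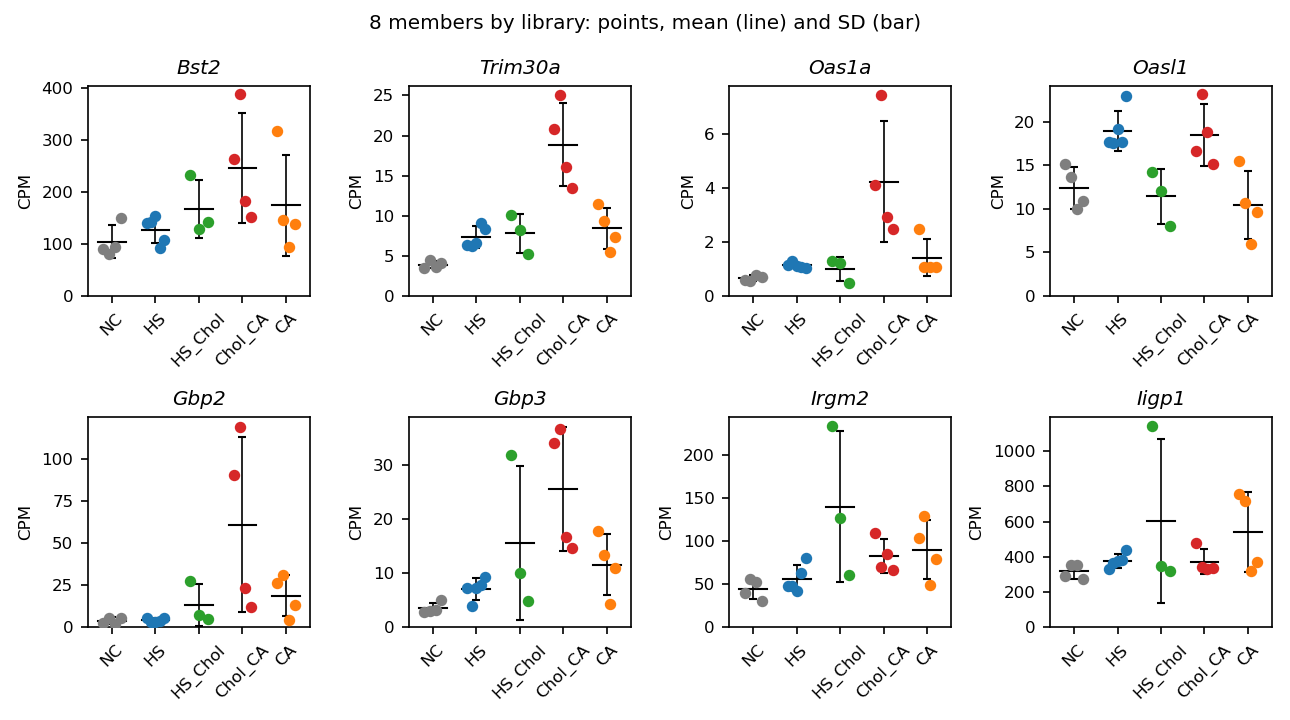
CPM of 8 members in each library by diet (points), with the mean (line) and the SD (bar) of NC (n = 4), HS (n = 5), HS_Chol (n = 3), Chol_CA (n = 4) and CA (n = 4), on axes that start at 0. Trim30a and Oas1a are highest in Chol_CA, while Irgm2 and Iigp1 are highest in HS_Chol_0.

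The diet of cholesterol with cholic acid raised the most members of the 4 diets, all of which were compared with the same 4 NC libraries. Against NC, 23 of the 35 members tested were higher in Chol_CA and 0 lower by edgeR's quasi-likelihood test at an adjusted p under 0.05, where 15% of all 12595 genes were higher and 9.35% lower. They were 16 of 25 type I members, 5 of 8 Gbp and Irg members, Irf1 and Irf8. The median log2 fold change was 1.17 over the type I members and 1.51 over the Gbp and Irg members, against -0.0015 over all genes. For 24 of the 35 members every Chol_CA library lay above every NC library, as it did for 14.3% of all genes. The log2 fold change was above 0 for 35 members and for 49.9% of all genes, and 28 members were higher at an unadjusted p under 0.05, against 19.7% of all genes.

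Trim30a, a ubiquitin ligase that restrains inflammatory signalling in mouse cells, had the smallest adjusted p of the type I part. It stood at 3.44, 4.43, 3.63 and 4.12 CPM in NC and at 20.8, 25.1, 16.1 and 13.4 CPM in Chol_CA. The groups did not overlap and it rose (log2 fold change 2.27 ± 0.25, adjusted p = 2.68e-06). Oas1a, a sensor of double-stranded RNA, stood at 0.573, 0.554, 0.778 and 0.71 CPM in NC and at 4.11, 7.45, 2.93 and 2.49 CPM in Chol_CA. It rose in every Chol_CA library over every NC library (log2 fold change 2.66 ± 0.40, adjusted p = 4.88e-05), and its reads can be shared with the near-identical copy Oas1g. Oas1a had from 3 to 65 reads per library and passed the filter on low counts only with its Chol_CA libraries, where it is high. Its call was kept in 9 of 9 other settings, among them no filter on low counts. The 3 largest changes of the part were all in this enzyme family: Oas3 (3.93 ± 0.63), Oas2 (2.76 ± 0.54) and Oas1a. Oas3 stood at 0.286, 0.554, 0.13 and 0.568 CPM in NC, so its change rests on few NC reads. The smallest called changes were those of the RNA sensor Ddx58, also called RIG-I (0.57 ± 0.15), and of Usp18, which removes Isg15 from proteins and dampens the type I receptor (1.14 ± 0.30).

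Gbp3 had the smallest adjusted p of the Gbp and Irg part, with 2.86, 3.05, 3.11 and 4.97 CPM in NC and 34.2, 36.7, 16.7 and 14.7 CPM in Chol_CA. All Chol_CA libraries were above NC, and Gbp3 rose (log2 fold change 2.86 ± 0.51, adjusted p = 0.000258). Gbp2, which coats bacterial and parasite vacuoles, stood at 2.43, 5.54, 1.95 and 5.82 CPM in NC and at 90.6, 119, 23.3 and 11.8 CPM in Chol_CA. It had the largest change of its part (log2 fold change 3.95 ± 0.73, adjusted p = 0.000384), and Chol_CA_0 and Chol_CA_1 stood well above Chol_CA_2 and Chol_CA_3. Gbp6 (2.19 ± 0.53), Igtp (1.67 ± 0.58) and Gbp7 (1.35 ± 0.34) were the other called members. All 4 Gbp members were thus called against 1 of 4 Irg members, since Irgm2 (log2 fold change 0.89 ± 0.34, adjusted p = 0.0652), Irgm1 (log2 fold change 0.67 ± 0.30, adjusted p = 0.116) and Iigp1 (log2 fold change 0.23 ± 0.32, adjusted p = 0.672) did not pass. A difference between the families themselves was not tested.

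Irf8, the transcription factor of macrophages and dendritic cells that interferon gamma also induces, stood at 3.58, 4.29, 3.37 and 6.96 CPM in NC and at 44.5, 69.9, 22.6 and 20.2 CPM in Chol_CA. Its groups did not overlap and it rose (log2 fold change 3.11 ± 0.43, adjusted p = 2.11e-05). Irf1 stood at 27.8, 26.2, 18.4 and 24.0 CPM in NC and at 80.0, 90.5, 43.6 and 36.8 CPM in Chol_CA and rose as well (log2 fold change 1.38 ± 0.31, adjusted p = 0.00256). The 9 type I members that did not pass were Isg15, Ifit1, Ifit3, Irf9, Stat2, Mx2, Oasl1, Rsad2 and Ifih1. Their log2 fold changes ran from 0.12 for Rsad2, the antiviral enzyme viperin, to 1.16 for the RNA-binding Ifit3 (adjusted p = 0.0527), all above 0.

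Markers of other cells moved with these members. All 10 Kupffer cell markers and all 10 markers of monocyte-derived macrophages were higher in Chol_CA than in NC, the latter summing to 257 to 1020 CPM against 45.5 to 99.3. Of the 8 tested T and NK cell markers 7 were higher, at sums of 12.5 to 66.5 CPM against 2.72 to 9.09, and of 7 hepatocyte markers 4 were lower. Of the neutrophil markers all 4 tested were higher, and Ly6g and Retnlg were at 0 in NC. Chol_CA_1, the highest of its diet for 22 of 26 type I members, had a negative length trend (-0.312), as did Chol_CA_0, and also had the highest sums for Kupffer cells (2940 CPM), monocyte-derived macrophages (1020 CPM) and T and NK cells (66.5 CPM). Their part in the result was not tested. Without Chol_CA_1, 19 members were called, and in the 2 Chol_CA and 3 NC libraries with a positive length trend 14 were, of which 1 was a Gbp and Irg member.

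The promoters of the 2 members with the smallest adjusted p in each part are shown because they carry the letters that interferon-activated factors bind. They come from RefSeq (build GRCm38.p6), run 5′ to 3′ on the gene's strand from 250 bases before to 50 bases after the start, and have capitals where an ISRE core (GAAA, any 2 bases, GAAA) or a GAS core (TTCNNNGAA) stands on either strand. The windows lie at chr7:104465144-104465443 (minus strand) for Trim30a, chr5:120907476-120907775 (minus strand) for Oas1a, chr3:142559794-142560093 (plus strand) for Gbp3 and chr3:142620413-142620712 (plus strand) for Gbp2.
Trim30a: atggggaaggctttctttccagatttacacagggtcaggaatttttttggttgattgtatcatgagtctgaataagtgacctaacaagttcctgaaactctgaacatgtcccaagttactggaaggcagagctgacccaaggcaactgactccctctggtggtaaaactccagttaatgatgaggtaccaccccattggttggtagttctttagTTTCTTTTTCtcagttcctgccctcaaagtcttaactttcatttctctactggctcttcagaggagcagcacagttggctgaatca
Oas1a: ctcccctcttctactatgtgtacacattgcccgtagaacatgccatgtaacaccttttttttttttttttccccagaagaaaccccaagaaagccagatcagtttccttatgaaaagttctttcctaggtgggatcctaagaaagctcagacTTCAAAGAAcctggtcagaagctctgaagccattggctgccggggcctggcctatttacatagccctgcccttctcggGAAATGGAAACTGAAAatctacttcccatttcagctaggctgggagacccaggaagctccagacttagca
Gbp3: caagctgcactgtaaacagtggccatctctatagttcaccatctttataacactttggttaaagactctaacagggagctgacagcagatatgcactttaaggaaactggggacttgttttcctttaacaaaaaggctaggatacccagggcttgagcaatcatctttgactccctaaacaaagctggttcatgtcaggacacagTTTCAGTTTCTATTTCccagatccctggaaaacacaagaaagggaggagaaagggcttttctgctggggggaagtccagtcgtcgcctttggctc
Gbp2: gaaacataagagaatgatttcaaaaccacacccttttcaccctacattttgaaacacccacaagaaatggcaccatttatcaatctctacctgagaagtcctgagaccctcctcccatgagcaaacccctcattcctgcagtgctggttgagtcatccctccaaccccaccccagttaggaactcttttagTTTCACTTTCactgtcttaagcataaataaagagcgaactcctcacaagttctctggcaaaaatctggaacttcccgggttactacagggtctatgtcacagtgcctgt

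In the 4 windows the ISRE core stood between 59 and 5 bases before the start, as 1 copy in Trim30a and Gbp2 and as 2 overlapping copies in Oas1a and Gbp3. In Trim30a, Gbp3 and Gbp2 it stood on the opposite strand, so the capitals show its reverse complement. Oas1a also held a GAS core from 98 to 90 bases before the start. Of the 27 members with a window in the reference table, 18 held an ISRE core (66.7%), against 944 of 27025 genes (3.49%). They were 12 of 19 type I members, 6 of 6 Gbp and Irg members, and 0 of the pair Irf1 and Irf8. A GAS core stood in 8 of the 27 (29.6%) against 8.4% of all genes, namely in 3 of 19 type I members, 3 of 6 Gbp and Irg members and in both Irf1 and Irf8. Both cores together were in 5 members (18.5%) against 0.507% of all genes. A base can lie in both cores, as in Bst2, and such bases were counted for each. The 6 windows with neither core were those of Irf7, Irf9, Ifi44, Oasl1, Oasl2 and Xaf1. A match is letters in a window and no measure of binding. Igtp and Irgm2, neighbours that share 162 exon bases on the same strand, both hold an ISRE and a GAS core. The letters around the ISRE core, in capitals, are shown from the windows at chr11:58199306-58199605 (plus strand) for Igtp and chr11:58214727-58215026 (plus strand) for Irgm2, because Irgm2 was called on sucrose with cholesterol.
Igtp: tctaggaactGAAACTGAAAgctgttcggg
Irgm2: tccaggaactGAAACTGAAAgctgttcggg

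**Figure D3:**
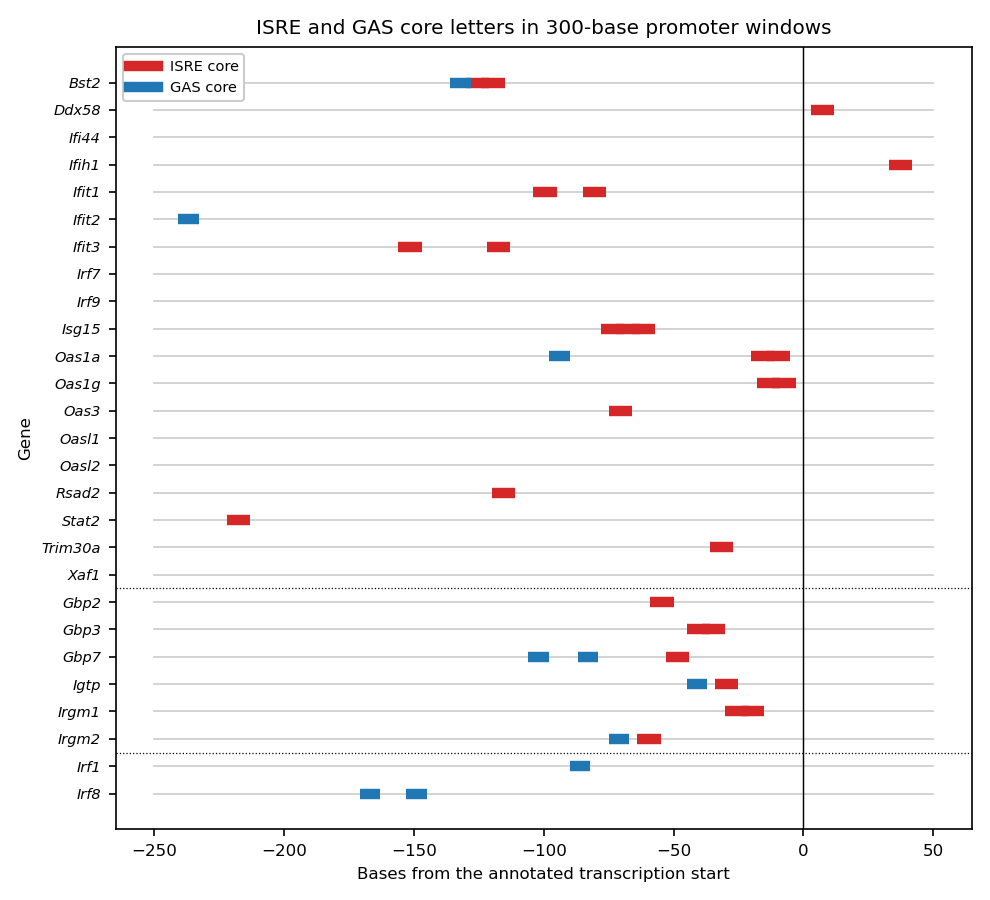
Positions of the ISRE core (red) and the GAS core (blue) on either strand in the promoter windows of 27 members, in bases from the annotated start (0). All 6 Gbp and Irg members have a red mark within 64 bases before the start.

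Cholic acid alone raised 10 members. Against NC 10 of 35 were higher in CA and 0 lower, where 5.22% of all genes were higher and 4.61% lower. The 6 type I members were Irf7 (1.31 ± 0.35), Usp18 (1.25 ± 0.30), Ifi44 (1.35 ± 0.31), Ddx58 (0.59 ± 0.15), the nucleic acid sensor Zbp1 (2.27 ± 0.56) and Trim30a (1.10 ± 0.26). The 4 Gbp and Irg members were Gbp3 (1.72 ± 0.51), Gbp6 (2.29 ± 0.53), Gbp7 (1.34 ± 0.34) and Igtp (1.99 ± 0.58). Adjusted p in edgeR ran from 0.00774 (Gbp6) to 0.034 (Gbp3). The median log2 fold change was 0.74 over the type I members and 1.53 over the Gbp and Irg members, against 0.011 over all genes. The log2 fold change was above 0 for 33 of 35 members (51.4% of all genes), 22 members were higher at an unadjusted p under 0.05 (12.1% of all genes), and 10 had all CA libraries above all NC libraries (7.23% of all genes).

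Ifi44, an interferon-induced gene of the type I part, stood at 2.00, 2.35, 2.85 and 2.84 CPM in NC and at 8.46, 5.30, 3.45 and 8.61 CPM in CA. All CA libraries lay above NC (log2 fold change 1.35 ± 0.31, adjusted p = 0.00824). Trim30a stood at 11.5, 9.30, 5.53 and 7.33 CPM in CA, again above all NC libraries (log2 fold change 1.10 ± 0.26, adjusted p = 0.00834). Gbp6 stood at 2.43, 1.25, 1.95 and 1.14 CPM in NC and at 13.4, 12.4, 2.67 and 5.10 CPM in CA, and its CA_2 value was just above the highest NC library. Gbp7 stood at 9.45, 15.4, 13.0 and 10.7 CPM in NC and at 38.1, 48.9, 15.7 and 20.7 CPM in CA, with CA_1 the highest. Not all called members separated: Irf7, Gbp3 and Igtp overlapped NC through CA_2.

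The 4 CA libraries differed among themselves, and CA_0 was the one with a negative length trend (-0.346). CA_0 was the highest of its diet for 21 of 26 type I and 5 of 8 Gbp and Irg members, and 25 of 26 and 8 of 8 stood above the highest NC library there. In CA_2 this held for 8 of 26 and 2 of 8. The same share over all genes was not taken, so these counts do not show what is particular to the members. The summed Kupffer cell markers were 849 CPM in CA_0, 562 in CA_1, 271 in CA_2 and 515 in CA_3, and those of T and NK cells 32.8, 13.5, 3.55 and 7.33 CPM. All 10 Kupffer cell markers were higher in CA than in NC. Of 8 tested T and NK cell markers 1 was called higher, Cd8a. Cd4 went the other way (log2 fold change -1.29) and was not called. The part of these markers in the result was not tested. The count of called members was 5 without NC_0, 6 without CA_0 and 6 without CA_1, and the type I median was 0.45 without CA_0.

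On sucrose with cholesterol the Gbp and Irg members stood out in level and few passed. Against NC, 2 of 35 members were higher in HS_Chol and 0 lower, where 1.71% of all genes were higher and 0.564% lower. Both were Gbp and Irg members. Irgm2 stood at 234, 127 and 60.7 CPM in HS_Chol and 39.7, 56.5, 52.3 and 31.0 CPM in NC, and the groups did not overlap (log2 fold change 1.65 ± 0.37, adjusted p = 0.0149). Gbp3 stood at 31.8, 10.1 and 4.92 CPM in HS_Chol and 2.86, 3.05, 3.11 and 4.97 CPM in NC, and HS_Chol_2 lay within NC (log2 fold change 2.15 ± 0.53, adjusted p = 0.0347). The median log2 fold change was 1.71 over the 8 Gbp and Irg members and 0.57 over the 25 type I members, against 0.0012 over all genes. At an unadjusted p under 0.05 all 8 Gbp and Irg members and 9 of 25 type I members were higher, against 7.39% of all genes. The log2 fold change was above 0 for 32 of 35 members (50.3% of all genes), and 7 had all HS_Chol libraries above all NC libraries (6.83% of all genes).

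These values turned on HS_Chol_0, the one HS_Chol library with a negative length trend (-0.0532). It was the highest of its diet for 25 of 26 type I and 8 of 8 Gbp and Irg members. Igtp, an Irg regulator, stood at 209.9, 45.6 and 21 CPM in HS_Chol and at 15.5, 21.3, 18.8 and 18 CPM in NC; HS_Chol_0 was the highest of all 20 libraries for this gene, and HS_Chol_2 lay within NC (log2 fold change 2.32 ± 0.62, adjusted p = 0.0516). Without HS_Chol_0 no member was called by edgeR: the change of Irgm2 was then 1.07 (adjusted p = 0.238), that of Gbp3 was 1.11 (adjusted p = 0.577), and the medians were 0.84 for the Gbp and Irg part and 0.26 for the type I part. The count was also 0 without NC_0 and 1 without NC_1, NC_2 or CA_3. It was 8 without HS_Chol_2, 5 without CA_0 and 4 without CA_2 or Chol_CA_1. The summed Kupffer cell markers were 684 CPM in HS_Chol_0, 395 in HS_Chol_1 and 264 in HS_Chol_2, and 4 of 10 were higher in HS_Chol than in NC. Those of T and NK cells were 13.9, 8.61 and 8.04 CPM, and 0 of 8 tested were called. Their part in the result was not tested. Neither Irgm2 nor Gbp3 shares exon bases with a gene on the opposite strand, but Irgm2 shares 162 with Igtp on its own strand. With opposite-strand overlapping genes left out, Irgm2 was the member still called (adjusted p = 0.0349).

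Sucrose alone raised no member past the threshold. Against NC 0 of 35 were called in HS by edgeR in either direction, and 0 by DESeq2, where 0.214% of all genes were higher and 0.437% lower by edgeR. At an unadjusted p under 0.05, 12 members were higher and 0 lower, where 5.54% of all genes were higher and 5.56% lower. The fitted log2 fold change was above 0 for all 35 members and for 53.1% of all genes, with a median of 0.68 over the type I members and 0.30 over the Gbp and Irg members, against 0.023 over all genes. All HS libraries lay above all NC libraries for 8 type I and 2 Gbp and Irg members, as for 2.17% of all genes.

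The genes with the smallest adjusted p in HS, chosen after their values were seen, were Trim30a and Ifi44. Trim30a stood at 6.40, 6.19, 6.59, 9.12 and 8.40 CPM in HS against 3.44, 4.43, 3.63 and 4.12 in NC (log2 fold change 0.91 ± 0.25, adjusted p = 0.121). Ifi44 stood at 7.40, 4.24, 4.24, 4.49 and 5.85 CPM in HS against 2.00, 2.35, 2.85 and 2.84 in NC (log2 fold change 1.06 ± 0.31, adjusted p = 0.152). Neither group overlapped NC, and neither gene passed. The Kupffer cell markers summed to 202, 158, 139, 276 and 358 CPM in HS_0 to HS_4, above NC in HS_0, HS_3 and HS_4, and 0 of 10 were called. Their part in the result was not tested.

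**Figure D4:**
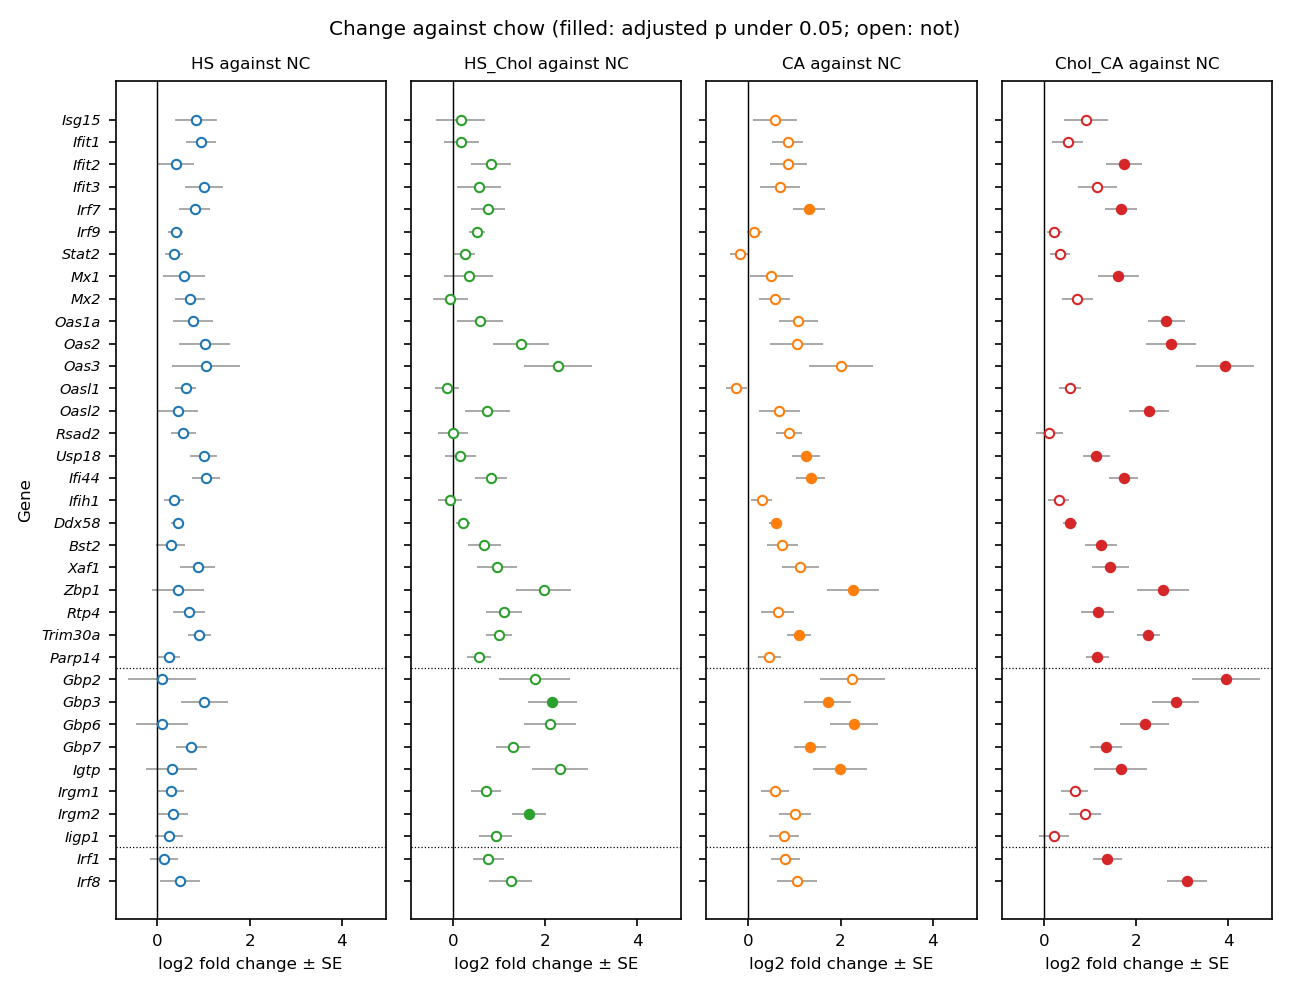
Log2 fold change against NC with its SE for the 35 members tested, in HS (n = 5), HS_Chol (n = 3), CA (n = 4) and Chol_CA (n = 4) against the same 4 NC libraries; filled points passed an adjusted p under 0.05. The filled points number 0, 2, 10 and 23.

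The type I part and the Gbp and Irg part stood in a different order in different diets. For each library the median over a part of log2(CPM + 0.5) minus the NC mean was taken, as a description without a test. In HS it was 0.60 ± 0.14 (SD, n = 5) for the type I part and 0.31 ± 0.16 for the Gbp and Irg part, and the type I median was the larger in all 5 libraries. In HS_Chol it was 0.45 ± 0.47 (SD, n = 3) and 1.40 ± 1.06, with the Gbp and Irg median the larger in all 3. In CA it was 0.63 ± 0.59 (SD, n = 4) and 1.29 ± 0.80, with the Gbp and Irg median the larger in all 4. In Chol_CA it was 1.20 ± 0.50 (SD, n = 4) and 1.37 ± 0.61, and the parts differed by between -0.11 and 0.65.

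The libraries show how wide these spreads are. The medians of the type I part and of the Gbp and Irg part were 0.94 and 2.55 in HS_Chol_0, 0.41 and 1.18 in HS_Chol_1 and -0.0032 and 0.46 in HS_Chol_2. They were 1.42 and 1.93 in CA_0, 0.54 and 1.91 in CA_1, -0.0032 and 0.24 in CA_2 and 0.55 and 1.10 in CA_3. Chol_CA gave 1.30 and 1.95, 1.81 and 1.83, 1.06 and 0.96, and 0.61 and 0.74 in Chol_CA_0 to Chol_CA_3. HS ran from 0.47 to 0.82 for the type I part and from 0.17 to 0.56 for the other, and NC from -0.16 to 0.15 and from -0.18 to 0.19. The Gbp and Irg median was furthest above the type I median in HS_Chol_0 (by 1.61) and CA_1 (by 1.37), and furthest below it in HS_1 (-0.33).

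**Figure D5:**
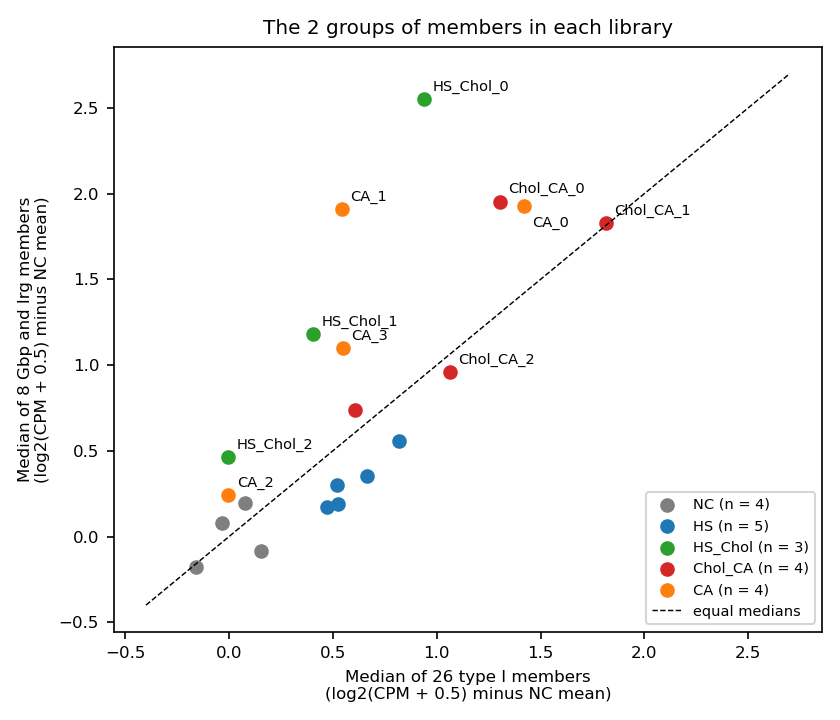
Median over the 26 type I members (x axis) and over the 8 Gbp and Irg members (y axis) of log2(CPM + 0.5) minus the NC mean, 1 point per library, coloured by diet. HS libraries lie below the line of equal medians, and HS_Chol and CA libraries above it.

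With cholesterol added to cholic acid, some members stood higher than on cholic acid alone. In Chol_CA against CA, 8 of 35 members were higher and 0 lower, where 13.4% of all genes were higher and 7.8% lower. They were 7 type I members, namely Trim30a (1.16 ± 0.23), Oas1a (1.57 ± 0.35), Oasl2 (1.61 ± 0.42), Oas3 (1.92 ± 0.51), Oasl1 (0.83 ± 0.23), Oas2 (1.71 ± 0.49) and Parp14 (0.70 ± 0.24), and Irf8. Apart from Trim30a, Parp14 and Irf8, all of them belong to the oligoadenylate synthetase family. Only Trim30a among them was also called in CA against NC. The mean of Oasl1 was lower in CA (10.5 CPM) than in NC (12.5 CPM). Trim30a stood at 20.8, 25.1, 16.1 and 13.4 CPM in Chol_CA and 11.5, 9.30, 5.53 and 7.33 in CA, without overlap (log2 fold change 1.16 ± 0.23, adjusted p = 0.00161). Oas1a stood at 4.11, 7.45, 2.93 and 2.49 CPM in Chol_CA and 2.47, 1.06, 1.09 and 1.06 in CA. The lowest Chol_CA library was just above CA_0 (log2 fold change 1.57 ± 0.35, adjusted p = 0.00327). Oas1a passed the filter on low counts only with these Chol_CA libraries. Irf8 stood at 44.5, 69.9, 22.6 and 20.2 CPM in Chol_CA and 13.2, 13.1, 5.43 and 6.27 in CA, again without overlap (log2 fold change 2.05 ± 0.40, adjusted p = 0.00114).

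The 8 Gbp and Irg members lay on both sides of 0 in the same comparison, 4 above and 4 below, with a median of -0.04 against 0.47 for the type I part and 0.021 for all genes. Leaving out 1 library moved the Gbp and Irg median to between -0.31 (without CA_2) and 0.22 (without CA_0), so its sign was not stable. The type I median was 0.83 without CA_0, 0.23 without CA_2 and 0.22 without Chol_CA_1. By edgeR 0 of these 8 were called, where 13.4% of all genes were higher, and 0 to 1 on leaving out 1 library. By DESeq2 0 were called. At an unadjusted p under 0.05 in edgeR, 2 of the 8 were higher. A difference between the parts was not tested. The largest change of the 8 was that of Gbp2 (log2 fold change 1.69 ± 0.63, adjusted p = 0.0628). Rsad2 was the member whose Chol_CA libraries all lay below CA, at 9.41, 11.6, 11.5 and 11.0 CPM against 17.9, 14.6, 21.5 and 19.9 (log2 fold change -0.76 ± 0.28, adjusted p = 0.0625). The share of all genes that lay below CA in this way was not taken, so the separation does not show anything particular to Rsad2. Over all 35 members 27 had a log2 fold change above 0 (52.3% of all genes), 13 were higher at an unadjusted p under 0.05 (19.2% of all genes) and 5 had all Chol_CA libraries above all CA libraries (12.1% of all genes). The count of called members was 4 without CA_2, 5 without CA_3 and 5 without Chol_CA_1. All 10 markers of monocyte-derived macrophages, 7 of 10 of Kupffer cells, all 6 of stellate cells and fibroblasts, all 4 tested of neutrophils and 4 of 5 tested of conventional dendritic cells were also higher in Chol_CA than in CA, and their part in the result was not tested.

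With cholesterol added to sucrose 1 member passed, and 1 call among 35 members is close to the share over all genes. In HS_Chol against HS, 1 of 35 members was higher and 0 lower, where 1.6% of all genes were higher and 0.651% lower. It was Irgm2, at 234, 127 and 60.7 CPM in HS_Chol and 48.0, 47.9, 42.5, 63.7 and 81.0 CPM in the HS libraries, and HS_Chol_2 lay within the HS range (log2 fold change 1.31 ± 0.34, adjusted p = 0.0484). The call was lost without HS_Chol_0 (log2 fold change 0.72, adjusted p = 0.518) and was kept in 6 of the 20 fits that left out 1 library and in 3 of 9 other settings. The median log2 fold change was 1.22 over the Gbp and Irg members, 0.30 without HS_Chol_0, and -0.10 over the type I members, against 0.014 over all genes. The type I median changed sign with the library left out, from -0.35 without HS_Chol_0 to 0.17 without HS_Chol_2. Of the 25 type I members 11 lay above 0 and 14 below, while all 8 Gbp and Irg members lay above 0, against 51.7% of all genes. At an unadjusted p under 0.05, 5 Gbp and Irg members and 1 type I member were higher, against 7.21% of all genes, and 4 type I members were lower, against 5.92%. Gbp6 was the member with all HS_Chol libraries above all HS libraries, as 6.33% of all genes were, and it was not called (log2 fold change 2.00 ± 0.53, adjusted p = 0.0519).

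Whether the cholesterol difference depended on the base diet was tested as a difference of differences, (Chol_CA minus CA) minus (HS_Chol minus HS). Of 35 members 1 was higher and 0 lower, where 2.47% of all genes were higher and 3.53% lower. This 1 call among 35 members is close to the share over all genes. The member was Oasl1, a relative of the synthetases without their enzyme activity that in mice holds back translation of Irf7. It stood at 16.7, 23.3, 18.9 and 15.2 CPM in Chol_CA and 15.5, 10.7, 5.92 and 9.67 in CA, and at 14.2, 12.1 and 8.04 in HS_Chol and 17.6, 17.6, 19.1, 17.7 and 22.9 in HS. Chol_CA thus lay above CA with overlap, while every HS_Chol library lay below every HS library, and the 2 changes differed (difference 1.56 ± 0.34, adjusted p = 0.00845). The share of all genes with every HS_Chol library below every HS library was not taken. Without CA_0, 5 members were called higher, and without Chol_CA_3, 2; without HS_Chol_2, 3 were called lower and without CA_2, 1. Oasl1 shares 38 exon bases with the opposite-strand gene Gm13822. Among Gbp and Irg members the largest differences were those of Igtp (difference -2.33 ± 0.80, adjusted p = 0.0912) and Gbp6 (difference -2.10 ± 0.70, adjusted p = 0.0838), below 0 and not called. The median was 0.61 over the type I members and -0.89 over the Gbp and Irg members, against 0.058 over all genes. The Gbp and Irg median was -0.23 without HS_Chol_0, and the type I median 0.33 without CA_2, 0.36 without HS_Chol_2 and 0.37 without HS_4. The difference was above 0 for 22 of 25 type I and 2 of 8 Gbp and Irg members, against 54.2% of all genes. At an unadjusted p under 0.05, 6 type I members were higher, against 11.3% of all genes, and 4 Gbp and Irg members were lower, against 9.47%.

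Genes of the pathway that are no members were read from lists chosen with earlier results of these data known. Their counts against NC stand beside shares over all genes that differed by diet. Of all genes, 15% were higher in Chol_CA, 5.22% in CA, 1.71% in HS_Chol and 0.214% in HS. The 10 interferon genes in the table had 39 reads over the 20 libraries, 38 of them on Ifng, which encodes interferon gamma. Ifng had 10, 19, 1 and 1 reads in Chol_CA_0 to Chol_CA_3, 4 reads over the CA libraries, 2 over HS, 1 over NC and 0 over HS_Chol, which allows up to 0.158 CPM there. Ifnb1 and the 4 interferon alpha genes listed had 0 reads in every library, so they were not detectable at this depth. Of 9 tested receptor and signal genes, 5 were higher in Chol_CA, led by the receptors Ifngr1 (log2 fold change 1.49 ± 0.23, adjusted p = 5.84e-05) and Il10rb (log2 fold change 1.88 ± 0.31, adjusted p = 0.000125), and 0 in HS or CA.

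Among 18 tested sensors and adaptors 11 were higher in Chol_CA, led by the endosomal receptors Tlr7 (log2 fold change 4.25 ± 0.49, adjusted p = 3.49e-06) and Tlr9 (log2 fold change 4.09 ± 0.52, adjusted p = 9.86e-06), 4 in CA, led by Tlr3 (log2 fold change 0.74 ± 0.19, adjusted p = 0.0147) and Ifi204 (log2 fold change 1.03 ± 0.29, adjusted p = 0.0288), 1 in HS_Chol, again Tlr9 (log2 fold change 2.92 ± 0.60, adjusted p = 0.00721), and 0 in HS. Of 8 negative regulators 3 were higher in Chol_CA, with Ptpn1 (log2 fold change 1.10 ± 0.17, adjusted p = 8.63e-05) and Ptpn6 (log2 fold change 1.41 ± 0.28, adjusted p = 0.000636) first, and 0 in the other diets. Other responders mainly to type I interferon were higher for 9 of 12 in Chol_CA, led by Slfn8 (log2 fold change 3.60 ± 0.42, adjusted p = 4.07e-06) and Ms4a4c (log2 fold change 5.37 ± 0.86, adjusted p = 9.52e-05), 2 in CA (Slfn8, log2 fold change 1.89 ± 0.45, adjusted p = 0.00918, and Slfn5, log2 fold change 1.06 ± 0.33, adjusted p = 0.0451), and 0 in HS and HS_Chol. Responders mainly to type II interferon were higher for 13 of 17 in Chol_CA, led by Ciita (log2 fold change 4.30 ± 0.48, adjusted p = 2.8e-06), which switches on MHC class II genes, and the adhesion molecule Icam1 (log2 fold change 2.32 ± 0.27, adjusted p = 3.5e-06). In CA 6 of 17 were higher, led by Icam1 (log2 fold change 1.20 ± 0.26, adjusted p = 0.00575) and Gbp10 (log2 fold change 2.82 ± 0.67, adjusted p = 0.0094), in HS_Chol 1, Ciita (log2 fold change 2.13 ± 0.55, adjusted p = 0.0431), and in HS 0. Responders to both were higher for 14 of 22 in Chol_CA, led by Ly6e (log2 fold change 2.73 ± 0.33, adjusted p = 5.05e-06) and Samd9l (log2 fold change 1.39 ± 0.21, adjusted p = 5.03e-05), 3 in CA, and 0 in HS and HS_Chol. No gene of these lists was lower against NC in any diet by edgeR.

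In the difference of differences 1 of 17 tested genes of the type II list was lower, where 3.53% of all genes were. It was Gbp10, a relative of the Gbp members. Gbp10 stood at 30.5, 8.31 and 2.30 CPM in HS_Chol and 2.85, 3.26, 1.73, 1.63 and 4.05 in HS, and at 11.9, 6.76, 7.52 and 5.74 in Chol_CA and 26.2, 26.3, 2.57 and 8.92 in CA. HS_Chol_0, CA_0 and CA_1 were its high libraries, as they were for Iigp1, and the differences were unequal (log2 fold change -3.34 ± 0.88, adjusted p = 0.0283). Ifngr1 (log2 fold change 1.17 ± 0.33, adjusted p = 0.0378) and Irf5 (log2 fold change 2.35 ± 0.53, adjusted p = 0.0116) were higher in the difference of differences, where 2.47% of all genes were.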

How the data were processed

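Total RNA from mouse liver was sequenced with a stranded kit, per the labels. Reads were aligned to mm10 with STAR 2.6.1c, per the submitters' processing notes; the counting tool is not given in the sources used here. The deposited table holds raw read counts per gene, and its 20 columns of the 5 diets were used (3 of the 4 labelled HS_Chol samples have a column used here); 3 further columns were not used. Symbols were matched to GENCODE M21 by name (29015) or older name (1876), and 3545 found no match.

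Counts were tested with edgeR 4.0.16 (R 4.3.3): low-count filter, TMM scaling, 1 mean per diet over all 20 libraries, robust quasi-likelihood test, Benjamini-Hochberg adjustment over 12595 genes, calls at an adjusted p under 0.05. CPM uses the TMM-scaled library size. Depth limits the members with few reads. The steps were tested on simulated data. Every-library values are given for the 3 members of highest mean CPM in each of the 2 main parts and for the 2 called members of smallest adjusted p per part and comparison; called members are all named up to 10, otherwise the 3 largest and 2 smallest changes per part. Alternatives were DESeq2 1.42.0, RLE factors, other filters, fewer libraries and terms for the length trend. The members, parts and lists were chosen with earlier results of these data known. A result on 1 pathway gene is not reported here.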

Additional observations from a re-analysis of the deposited data

Results flagged for a closer look

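Among 152 groups (the 36 members and the medians of both parts, in each of 4 diets), 4 had 1 library that stood apart by Dixon's criterion, the gap to the nearest library as a share of the group's range on the log2(CPM + 0.5) scale; chance does this in about 1 in 20 groups. Gbp3 was high in NC_3 (4.97 CPM, share 0.854), Zbp1 in HS_4 (9.75 CPM, share 0.75), Iigp1 in Chol_CA_0 (479 CPM, share 0.892) and Oas1a in CA_0 (2.47 CPM, share 0.974). Groups of 3 libraries, as HS_Chol, were not examined this way.

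The difference made by cholesterol depended on the base diet for Oasl1, by 1.56 on the log2 scale (edgeR's quasi-likelihood test with Benjamini-Hochberg adjustment, adjusted p = 0.00845). All 3 HS_Chol libraries were below all 5 HS libraries, and the share of all genes for which this held was not taken. The call was kept in 20 of 20 fits that left out 1 library with adjusted p from 0.00095 to 0.0342, and in 8 of 8 other settings that tested the gene, with adjusted p from 0.000608 to 0.0162. Oasl1 shares 38 exon bases with the opposite-strand gene Gm13822, and the setting without such genes drops it. These fits therefore do not test the part of opposite-strand reads. Oasl1 was 1 call among 35 members, which is close to the share over all genes, where 2.47% were higher.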

How the results depend on the processing

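No call turned to the opposite direction in any setting run. The medians near 0 did change sign, namely the Gbp and Irg median in Chol_CA against CA (-0.31 to 0.22 on leaving out 1 library) and the type I median in HS_Chol against HS (-0.35 to 0.17). Members higher in Chol_CA against NC numbered 23, and 14 in libraries with a positive length trend. Those higher in CA against NC numbered 10, and 17 with a term for the trend's sign. Of the 10, Irf7, Usp18, Gbp7 and Igtp were not called in libraries with a positive length trend. Gbp3 and Igtp were not called with no filter. Those higher in HS_Chol against NC (2) numbered 8 by DESeq2, 5 with the sign term or a numeric trend term (chosen after seeing the data), 1 with no filter or without genes that overlap on the opposite strand, and 0 with only the diets compared or a positive trend. Those higher in HS_Chol against HS (1) numbered 3 by DESeq2 and with either trend term, 2 with a stricter filter, and 0 with no filter, a positive trend or no overlapping genes; Irgm2 was not among those called with either trend term, nor with only the diets compared (Gbp6 was). In HS against NC 1 was higher with only the diets compared (Irf7), with a positive trend (Trim30a) and with the numeric term (Ddx58). In Chol_CA against CA 1 was lower (Rsad2) by DESeq2, with only the diets compared and with the numeric term. In the difference of differences 2 were lower by DESeq2 (Irgm2, Gbp6) and with the sign term (Igtp, Gbp6), and 6 higher with a positive trend; 0 were higher without overlapping genes, since that drops Oasl1 itself. The cause of the other changes was not tested.

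Leaving out each library in turn, the members higher numbered 5 to 14 in CA against NC, 19 to 26 in Chol_CA against NC, 0 to 8 in HS_Chol against NC, 0 to 0 in HS against NC, 4 to 12 in Chol_CA against CA, 0 to 3 in HS_Chol against HS and 1 to 5 in the difference of differences; those lower numbered 0 to 1 in Chol_CA against CA and 0 to 3 in the difference of differences. The Gbp and Irg median in HS_Chol against NC was 0.84 without HS_Chol_0. No paired analysis was possible because column numbers start at 0 and labelled numbers at 1, so no column could be matched to a labelled number.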
